A study of Mus musculus with 12 samples.

Results

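The genes described here are 10 regulators that mark the neural crest or drive the change from an epithelial to a mesenchymal state: Snai1, Snai2, Zeb1, Zeb2, Twist1, Twist2, Prrx1, Tfap2a, Foxd3 and Ngfr. They were chosen by name, and all 10 were found once each among the 45706 Ensembl genes of the count table. All 10 passed the filter on low counts, which left 17003 genes for testing. The 12 RNA libraries fall into 4 groups of mouse cells derived from embryonic stem cells on a C57BL/6 background, with 3 replicates each. NPC are neural progenitor cells with the Sox1 reporter off, labelled as baseline glial progenitors and not sorted. NPC(+) are progenitors labelled Sox1 positive and sorted, in which a catalytically dead Cas9 fused to the activator VP64 (dCas9-VP64) had been directed to the Sox1 promoter by guide RNAs. NSC are neural stem cells labelled as unsorted neuroepithelium, and NR are libraries labelled as neural rosettes sorted on GFP. The cells carry GFP in place of 1 Sox1 allele, the dCas9-VP64 lines were grown from single cells, and which line gave which NPC or NPC(+) library is not stated. By the labels, sorting therefore differed between NPC and NPC(+) along with the activation. The effects of the sort and of the activation then cannot be told apart. The paper, however, describes a sort of cells for its comparison of NPC with and without induction of the reporter. In bulk RNA, fewer cells of a type and less RNA per cell cannot be told apart either.

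Neural crest cells arise at the border of the neural plate, leave the neural tube by an epithelial to mesenchymal transition and give rise to peripheral neurons, glia, pigment cells and facial mesenchyme. Snai1 and Snai2 are zinc finger repressors, Zeb1 and Zeb2 are zinc finger homeodomain repressors, and all of them bind the DNA word CACCTG, through which they silence epithelial genes such as Cdh1. Twist1 and Twist2 are basic helix-loop-helix factors that bind the wider class of words CANNTG, called E-boxes. Prrx1 is a paired-related homeodomain factor of limb and facial mesenchyme, Tfap2a is the AP-2α factor of surface ectoderm, plate border and crest, and Foxd3 is a forkhead factor of premigratory crest that pluripotent cells also use. Ngfr encodes p75NTR, the low-affinity neurotrophin receptor by which crest stem cells are often isolated.

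The sequences upstream of 4 of these genes are shown because 3 of them hold a word that factors of the set can bind and the other, Twist2, rose in NPC(+) without holding one. RefSeq promoters on GRCm38.p6 were found for 8 of the 10 genes, 12 promoters in all, and none was found for Snai2 and Zeb1. Each was searched on both strands for CACCTG and for CANNTG, from 250 bases before to 50 bases after the start of the gene. Below are the 250 bases before the start, 5′ to 3′ on the strand of the gene, with E-boxes in capitals. They lie at chr2:167537945-167538194 (plus strand) for Snai1, chr4:99656049-99656298 (plus strand) for Foxd3, chr11:95587699-95587948 (minus strand) for Ngfr and chr1:91801211-91801460 (plus strand) for Twist2.
Snai1: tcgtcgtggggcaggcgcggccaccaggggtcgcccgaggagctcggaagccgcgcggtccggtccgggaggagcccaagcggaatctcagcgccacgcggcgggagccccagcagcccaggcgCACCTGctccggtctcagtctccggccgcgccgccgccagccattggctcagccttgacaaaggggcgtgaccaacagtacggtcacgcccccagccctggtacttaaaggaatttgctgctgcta
Foxd3: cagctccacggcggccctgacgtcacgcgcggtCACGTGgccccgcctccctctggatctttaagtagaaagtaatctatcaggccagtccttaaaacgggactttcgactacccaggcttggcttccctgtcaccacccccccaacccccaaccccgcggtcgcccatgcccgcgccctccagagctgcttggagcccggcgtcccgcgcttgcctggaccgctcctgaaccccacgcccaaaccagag
Ngfr: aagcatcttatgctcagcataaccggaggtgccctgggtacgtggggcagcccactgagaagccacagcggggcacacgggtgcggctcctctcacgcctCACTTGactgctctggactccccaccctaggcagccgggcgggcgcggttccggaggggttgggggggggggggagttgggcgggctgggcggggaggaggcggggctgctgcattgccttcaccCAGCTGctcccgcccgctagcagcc
Twist2: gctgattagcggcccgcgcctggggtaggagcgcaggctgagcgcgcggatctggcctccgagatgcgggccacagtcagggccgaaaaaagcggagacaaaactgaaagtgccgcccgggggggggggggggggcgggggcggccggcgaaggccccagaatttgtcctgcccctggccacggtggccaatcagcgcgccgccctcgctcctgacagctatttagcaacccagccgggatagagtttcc
The CACCTG of Snai1, the word bound by its own family, began 126 bases before the start, and 20.2% of the 32851 promoters of this length held that word. The Foxd3 promoter held CACGTG 217 bases before the start, and that of Ngfr held CACTTG 150 and CAGCTG 25 bases before it. An E-box of any kind stood in 72.3% of all promoters. None was in the windows of Twist1, Twist2 and Prrx1, in the 4 of Zeb2 or in the 2 of Tfap2a. A match describes letters in a window and not a bound site.

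Library totals ranged from 3407066 to 6315574 counts in NPC(+), 4939268 to 18351483 in NPC, 16707006 to 34594885 in NR and 29046205 to 43095688 in NSC. Levels are given as CPM, the usual count per library total, here scaled by the trimmed mean of M values (TMM). A value of 3 counts in a library was taken as the floor, 0.622 CPM on average in NPC(+) and 0.391 CPM in NPC, against 0.0896 in NSC and 0.122 in NR. Sox1 itself, the targeted gene, stood at 4.83, 6.00 and 5.43 CPM in NPC and at 20.3, 20.9 and 21.7 CPM in NPC(+). It was at 48.6, 64.9 and 51.8 CPM in NSC, and in NR at 4.62, 20.0 and 19.2 CPM. Replicate 1 of NR thus had less Sox1 than any NPC library although the label gives it as sorted on GFP. The 5 pluripotency markers (Pou5f1, Nanog, Zfp42, Esrrb and Tdgf1) summed to 596 to 1082 CPM in NR, 22.1 to 61.2 in NSC, 4.84 to 6.37 in NPC(+) and 2.92 to 3.77 in NPC, and none of the 5 was at 0 throughout a group. The 6 progenitor markers (Nes, Sox2, Fabp7, Slc1a3, Olig2 and Egfr) summed to 4629 to 4970 CPM in NPC and 2261 to 2368 in NPC(+). Their sum was 979 to 1440 CPM in NSC and 365 to 617 in NR. Slc1a3 was the largest part of the NPC sum, with a mean of 2605 CPM against 52.4 in NSC and 42.3 in NR. Compared with NPC, 5 of the 6 were lower and 1, Nes, was higher in each other group. For Nes the NPC mean was 90.2 CPM, while those of NPC(+), NSC and NR were 227, 479 and 167 CPM. The values of NR are therefore those of the libraries labelled NR.

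The question of the first comparison is what changes in NPC when the Sox1 promoter is activated. Of the 10 genes, 2 were higher in NPC(+) than in NPC, Snai2 and Twist2, and 1 was lower, Zeb1. A gene was called at an adjusted p under 0.1 together with a p under 0.05 in edgeR's quasi-likelihood test. Of all 17003 genes 21.6% were called higher and 22.7% lower in this comparison, so the share of the set that rose, 2 of 10, was near that background. The median log2 difference was 0.55 over the 8 genes above the floor in at least 1 library, against -0.0058 over the 15092 such genes of the table.

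Snai2, the Snail repressor found in migrating crest and mesenchyme, had 1, 2 and 0 counts in the NPC libraries and 22, 37 and 29 in the NPC(+) libraries. These are levels of 0.0597, 0.279 and 0 CPM against 6.37, 5.81 and 4.84 CPM, and every NPC(+) library was above every NPC library. With NPC at the floor, the ratio of pooled counts per effective library size was 53.2, with an exact 95% interval for counting error of 17.6 to 263 (adjusted p = 7.67e-05 in edgeR). Its paralog Snai1 stayed at the floor in both groups, with 2, 1 and 1 counts in NPC and 1, 0 and 1 in NPC(+). No fold is given for Snai1, and a rise to a level under the floor of NPC(+) could not have been seen at this depth.

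Twist2, a mesenchymal helix-loop-helix factor of dermis and facial mesenchyme, had 1, 0 and 0 counts in NPC and 2, 6 and 5 in NPC(+). Its level in NPC(+) was 0.579, 0.942 and 0.834 CPM, all above the NPC values of 0.0597, 0 and 0 CPM. The ratio of pooled counts was 23.6 with a 95% interval of 3.55 to 1003 (adjusted p = 8.64e-04). The rise thus rests on 13 counts against 1, and its lower bound is small. An antisense gene, Gm29100, shares 1477 exon bases with Twist2. Without the strand setting its reads and those of Twist2 cannot be told apart, in NPC(+) as elsewhere. Twist1, the paralog used by cranial crest and mesoderm, was at 19.8, 18.7 and 17.7 CPM in NPC and at 18.8, 17.6 and 16.7 CPM in NPC(+). The groups of Twist1 overlapped and its log2 difference was -0.09 (SE 0.21, adjusted p = 0.778).

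Zeb1, which neural progenitors of the ventricular zone also express, was the most abundant of the 10 per kilobase of exon in NPC. It stood at 329, 319 and 309 CPM in NPC and at 258, 244 and 263 CPM in NPC(+), so that each NPC(+) library was below each NPC library. The log2 difference was -0.33 (SE 0.11, adjusted p = 0.0351). The call was lost when NPC replicate 1, NPC(+) replicate 1 or NPC(+) replicate 2 was left out, with adjusted p of 0.145, 0.107 and 0.116. Zeb2, which acts in crest and in neuronal differentiation, had 57.3, 51.2 and 52.6 CPM in NPC and 47.5, 49.3 and 47.5 CPM in NPC(+). That is a log2 difference of -0.16 (SE 0.22, adjusted p = 0.610), and although the groups of Zeb2 did not overlap the test did not pass.

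The remaining genes of the set did not pass between NPC and NPC(+). Tfap2a was at 4.18, 5.72 and 6.05 CPM in NPC and at 5.5, 10.05 and 8.84 CPM in NPC(+), and the groups overlapped in 1 library. Its log2 difference of 0.67 (SE 0.33, adjusted p = 0.137) passed in 5 of 24 alternatives. Among them were the fit of only these groups (0.81, adjusted p = 0.00327) and those without NPC(+) replicate 1 (0.88, adjusted p = 0.0683) and without NSC replicate 2 (0.69, adjusted p = 0.0715). Prrx1 was low in all 6 libraries, at 0.716, 0.698 and 0.417 CPM in NPC and 0.869, 0.942 and 0.834 CPM in NPC(+), a log2 difference of 0.43 (SE 0.89, adjusted p = 0.757). The p75NTR gene Ngfr had 0.716, 0.279 and 1.46 CPM in NPC and 0.869, 2.51 and 0.834 CPM in NPC(+). The higher mean of Ngfr in NPC(+) came from replicate 2, since the log2 difference of 1.01 (SE 0.59, adjusted p = 0.206) was 0.19 without it. Ngfr passed in 1 of 23 alternatives. Foxd3 had 0, 2 and 0 counts in NPC and 1, 0 and 2 in NPC(+), at the floor in both.

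**Figure D1:**
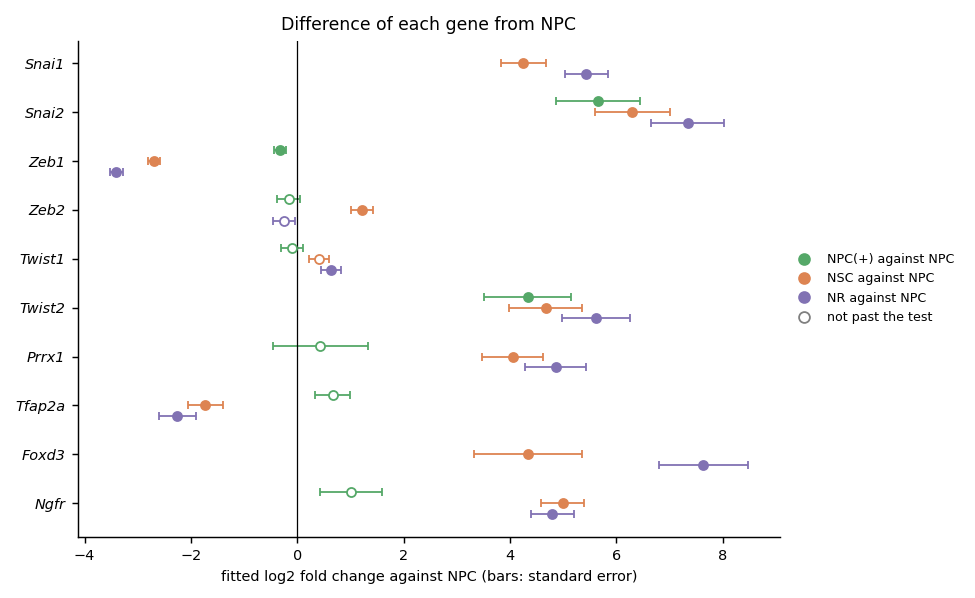
Fitted log2 fold change against NPC (x axis) with its standard error for each of the 10 genes (y axis) in NPC(+), NSC and NR, from 1 fit over 12 libraries in which the 3 comparisons share the NPC libraries. Filled points passed the test and open points did not. Snai1 and Foxd3 have no point for NPC(+) because both groups were at the floor, and the points of Snai1, Snai2, Twist2 and Foxd3 rest on 1 to 4 counts in NPC.

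NSC and NR stood apart from NPC in most of the set. Compared with NPC, 7 of the 10 genes were higher and 2 lower in NSC, against 42.7% and 32.5% of all genes. In NR, 7 were higher and 2 lower, against 44.2% and 32.8%. The median log2 difference over the 10 genes was 4.15 in NSC and 4.83 in NR, while the medians of all genes above the floor were 0.15 and 0.19. Of the 10 genes, 4 (Snai1, Snai2, Twist2 and Foxd3) had 3 counts or fewer in every NPC library. They passed the low-count filter only through other groups, and their fitted differences from NPC are unstable. The NSC median lies between Prrx1 (4.05) and Snai1 (4.25), and the medians do not describe a shift of the whole set. These comparisons share the NPC libraries, so they are not independent of each other. Genes higher in both were Snai1, Snai2, Twist2, Prrx1, Foxd3 and Ngfr, with Zeb2 joining them in NSC and Twist1 in NR. Zeb1 and Tfap2a were lower in both.

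The Snail family was highest in NR. Snai1 was at 2.75, 3.07 and 2.56 CPM in NSC and at 7.27, 5.48 and 6.38 CPM in NR, and the libraries of the 4 groups overlapped only between NPC and NPC(+). The ratio of pooled counts to NPC, which held 4 counts in all, was 20.0 in NSC (interval 7.71 to 73.7, adjusted p = 7.51e-07) and 44.6 in NR (17.3 to 165, adjusted p = 3.60e-08). Snai1 was higher in NR than in NSC by a log2 difference of 1.19 (SE 0.23, adjusted p = 9.53e-04). Snai2 was at 10.6, 5.04 and 10.8 CPM in NSC and at 27.3, 9.52 and 17.8 CPM in NR, and replicate 2 was the lowest library in each group. The ratio of Snai2 to NPC was 87.5 in NSC (29.8 to 425, adjusted p = 2.42e-06) and 159 in NR (54.2 to 771, adjusted p = 3.13e-07). Snai2 in NPC(+), at 4.84 to 6.37 CPM, thus overlapped NSC. The log2 difference of NPC(+) from NSC was -0.65 (SE 0.40, adjusted p = 0.165), and without NSC replicate 2 it was -0.91 and passed (adjusted p = 0.0415). Between NPC(+) and NR it was -1.69 (SE 0.40, adjusted p = 0.00181), and no libraries overlapped.

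Zeb1 and Zeb2 moved apart. Zeb1 was at 52.0, 45.8 and 49.8 CPM in NSC and at 23.3, 33.5 and 33.3 CPM in NR, each below every NPC library. Its log2 difference from NPC was -2.70 in NSC (SE 0.12, adjusted p = 2.44e-10) and -3.40 in NR (SE 0.12, adjusted p = 3.53e-11), and NR was below NSC, at -0.70 (SE 0.11, adjusted p = 2.33e-04). Zeb2 went the other way in NSC, where it reached 126, 122 and 130 CPM, a log2 difference of 1.23 from NPC (SE 0.21, adjusted p = 1.10e-04). In NR it spread over 27.0, 63.5 and 44.8 CPM, below every NSC library and on either side of NPC, with a log2 difference from NPC of -0.25 (SE 0.21, adjusted p = 0.290). Replicate 2 decides this value, because without it the NR libraries were below NPC, at -0.57 on the log2 scale and the test passed (adjusted p = 0.00432). NR was below NSC, at -1.47 (SE 0.20, adjusted p = 6.82e-05). An antisense gene, Zeb2os, shares 653 exon bases with Zeb2 and held 137 counts over all libraries against 19781 for Zeb2.

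Twist2 and Twist1 differed in how far they spread over the groups. Twist2 was at 1.21, 0.622 and 1.25 CPM in NSC and at 1.91, 2.16 and 1.91 CPM in NR. The ratio to NPC, which held 1 count in all, was 30.5 in NSC (5.36 to 1214, adjusted p = 3.01e-05) and 57.5 in NR (10.2 to 2287, adjusted p = 2.30e-06). NR was above NSC by 0.94 (SE 0.30, adjusted p = 0.0172), and NPC(+) against NSC was at -0.34 (SE 0.42, adjusted p = 0.478) with overlapping libraries. The antisense gene Gm29100 shares 1477 exon bases with Twist2 and held 95 counts against 293 for Twist2. Since the strand setting of the counting is not given, reads of the antisense gene and of Twist2 cannot be told apart. Twist1 was at 20.2, 31.1 and 23.5 CPM in NSC and 25.0, 38.2 and 24.3 CPM in NR, with replicate 2 highest in each. Its log2 difference from NPC was 0.40 in NSC (SE 0.19, adjusted p = 0.0711 in edgeR with an unadjusted value of 0.0539), which did not pass, and 0.63 in NR (SE 0.19, adjusted p = 0.00815), which did. The difference of Twist1 between NSC and NPC passed in 9 of 24 alternatives, among them DESeq2 (0.45, adjusted p = 0.0477) and the fit with no filter (0.49, adjusted p = 0.0103). The difference of Twist1 between NR and NSC was 0.23 (SE 0.18, adjusted p = 0.312).

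Prrx1, Foxd3 and Ngfr were low in NPC and NPC(+) and present in NSC and NR. Prrx1 was at 15.8, 4.21 and 12.7 CPM in NSC and at 25.2, 10.2 and 22.1 CPM in NR, with log2 differences from NPC of 4.05 (SE 0.58, adjusted p = 2.25e-05) and 4.86 (SE 0.57, adjusted p = 3.31e-06). Between NR and NSC its log2 difference was 0.80 (SE 0.38, adjusted p = 0.0986 in edgeR with an unadjusted value of 0.0557) and did not pass. This difference of Prrx1 passed in 7 of 24 alternatives, among them the fit blocked by replicate (0.89, adjusted p = 0.00186). Foxd3 was at 1.88, 0.587 and 2.19 CPM in NSC and at 21.1, 8.65 and 16.8 CPM in NR. The ratio of pooled Foxd3 counts to NPC, with 2 counts, was 23.3 in NSC (6.36 to 194, adjusted p = 0.00157) and 209 in NR (57.8 to 1730, adjusted p = 1.65e-06). NR was above NSC by 3.29 (SE 0.47, adjusted p = 8.63e-05), the largest difference of the set between these groups. The pluripotency markers differ between NR and NSC in the same direction, all 5 higher in NR with a median log2 difference of 3.94, and their part in the Foxd3 result was not tested. Ngfr was at 19.1, 30.8 and 21.5 CPM in NSC and at 15.5, 23.8 and 22.8 CPM in NR. These were log2 differences from NPC of 4.99 (SE 0.41, adjusted p = 8.74e-08) and 4.80 (SE 0.41, adjusted p = 1.24e-07). Ngfr in NR and NSC overlapped, with a log2 difference of -0.19 (SE 0.26, adjusted p = 0.568).

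Tfap2a, like Zeb1, was lower in NSC and NR than in the progenitors. It was at 1.68, 0.932 and 2.07 CPM in NSC and at 1.29, 0.774 and 1.24 CPM in NR, below each NPC and NPC(+) library. The log2 difference from NPC was -1.73 in NSC (SE 0.33, adjusted p = 3.27e-04) and -2.25 in NR (SE 0.35, adjusted p = 4.37e-05). Its highest levels were therefore in the progenitors, where Snai1, Foxd3 and Prrx1 were at or near the floor. An antisense gene, Gm26688, shares 380 exon bases with Tfap2a and held 59 counts against 535.

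Between NR and NSC, 4 of the 10 genes were higher in NR (Snai1, Snai2, Twist2 and Foxd3) and 2 lower (Zeb1 and Zeb2), against 29.5% and 25.8% of all genes. The log2 difference of Snai2 was 1.04 (SE 0.35, adjusted p = 0.0238), and without NR replicate 1 it was 0.63 and did not pass (adjusted p = 0.139). Replicate 2 of NR and replicate 2 of NSC deviated together, but the numbers did not pair replicates 1 and 3. In a fit blocked by replicate number 5 genes were higher, Prrx1 being added, and 2 lower. Tfap2a, with a log2 difference of -0.53 (SE 0.33, adjusted p = 0.212), did not pass in either fit.

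Set against NSC, NPC(+) was higher in 2 of the 10 genes and lower in 6, against 30% and 39.9% of all genes. Zeb1 and Tfap2a were higher, by 2.37 (SE 0.12, adjusted p = 1.14e-09) and 2.39 (SE 0.33, adjusted p = 2.23e-05) on the log2 scale. Lower were Snai1, Zeb2, Twist1, Prrx1, Foxd3 and Ngfr, and the genes that did not pass were Snai2 and Twist2, those that had risen from NPC. Twist1 passed narrowly at -0.50 (SE 0.20, adjusted p = 0.0392), and not without NSC replicate 2 (-0.29, adjusted p = 0.196) or any 1 NPC(+) library (adjusted p of 0.0841 to 0.107, p over 0.05). Foxd3, with 3 counts in NPC(+), did not pass without NPC(+) replicate 2 (adjusted p = 0.0799, p over 0.05). Against NR, 2 genes were higher in NPC(+) (Zeb1 by 3.07 and Tfap2a by 2.92) and 7 lower, with 30.8% and 42.9% of all genes as background. The gene that did not pass was Zeb2, at 0.09 (SE 0.21, adjusted p = 0.734).

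Dividing by exon length gives the order of the genes within a group, in mean CPM per kilobase of exon. In NPC it ran from Zeb1 (31.1 ± 0.978, SD, n = 3) and Twist1 (11.5 ± 0.618) to Zeb2 (2.69 ± 0.162) and Tfap2a, with the other 6 genes far below. In NPC(+) Snai2 (2.81 ± 0.384) came next after Zeb1 (24.8 ± 0.967) and Twist1 (10.9 ± 0.659). The libraries of Snai2 overlapped those of Zeb2 (2.41 ± 0.0521). In NSC the order was led by Twist1 (15.3 ± 3.46), then Ngfr, Zeb2 (6.32 ± 0.218), Zeb1 (4.79 ± 0.306) and Snai2 (4.36 ± 1.61). The mean of Zeb1 lay within the wider spread of Snai2. In NR Twist1 (17.9 ± 4.81) was followed by Snai2 (9.02 ± 4.41), Foxd3, Ngfr and Snai1 (3.93 ± 0.550), while Zeb1 (2.93 ± 0.570) had dropped below these. The exon length is that of all annotated exons merged, so a gene read mostly from a short transcript is placed too low.

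The genes these factors are known to act on did not move as 1 block. Of all genes tested, 21.6% were higher and 22.7% lower in NPC(+) than in NPC. The shares against NPC were 42.7% and 32.5% in NSC and 44.2% and 32.8% in NR. They are the background for each list below, and in lists this short a few genes make up such a share. Genes with 3 counts or fewer in every NPC library could pass the low-count filter only through other groups. For them no fall from NPC could be seen. Among others, this level held for 8 of 18 epithelial genes and 7 of 13 crest derivative genes. Cadherins and matrix genes of mesenchyme rose in NPC(+) in part: 6 of 17 tested mesenchymal genes were higher and none lower, with a median log2 difference of 0.55 over the 16 above the floor. Mmp14, a membrane metalloprotease, was at 1.19, 1.81 and 1.25 CPM in NPC and 10.1, 12.2 and 9.67 CPM in NPC(+), a log2 difference of 2.97 (SE 0.38, adjusted p = 3.38e-05). Cdh2, the N-cadherin of neural and mesenchymal cells, was higher by 1.11 (SE 0.26, adjusted p = 0.00347) and the forkhead gene Foxc2 by 1.31 (SE 0.52, adjusted p = 0.0620). Among 18 epithelial genes none was called in either direction by edgeR, none had an unadjusted p under 0.05, and DESeq2 called none. Only 10 of the 18 were above the floor in at least 1 library, and the other 8 had 3 counts or fewer in every NPC and NPC(+) library. Cdh1, the classical target of these repressors, had 9, 8 and 1 counts in NPC and 1, 2 and 8 in NPC(+), and both groups were close to the floor. DESeq2 called 7 mesenchymal genes higher and none lower in NPC(+). At an unadjusted p under 0.05 the lower count in edgeR was again 0.

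In NSC and NR mesenchymal and epithelial genes rose together. Against NPC, 16 of 17 mesenchymal genes were higher in NSC and 15 in NR, where Vim was lower (-0.33, SE 0.15, adjusted p = 0.0575), and 17 of 18 epithelial genes were higher in NSC and 18 in NR. The medians were 6.56 and 6.53 on the log2 scale for the mesenchymal genes and 4.41 and 7.18 for the epithelial ones, counting genes with NPC at 0 at their bound. Cdh1 was at 60.0, 50.8 and 61.0 CPM in NSC and at 354, 203 and 219 CPM in NR, while it was 1.12 CPM or lower in NPC. Its log2 difference from NPC was 6.49 in NSC (SE 0.36, adjusted p = 2.02e-09) and 8.67 in NR (SE 0.35, adjusted p = 9.85e-11). The groups with the most Snai1 and Snai2 thus also had the most Cdh1. Between NR and NSC 17 of 18 epithelial genes were higher in NR and none lower, and 4 mesenchymal genes were higher and 2 lower. The medians were 2.65 for the epithelial genes and 3.94 for the 5 pluripotency markers, all 5 of which were higher in NR, and the part of those markers in the epithelial values was not tested. Whether the same cells held both kinds of transcript cannot be told from bulk RNA.

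**Figure D2:**
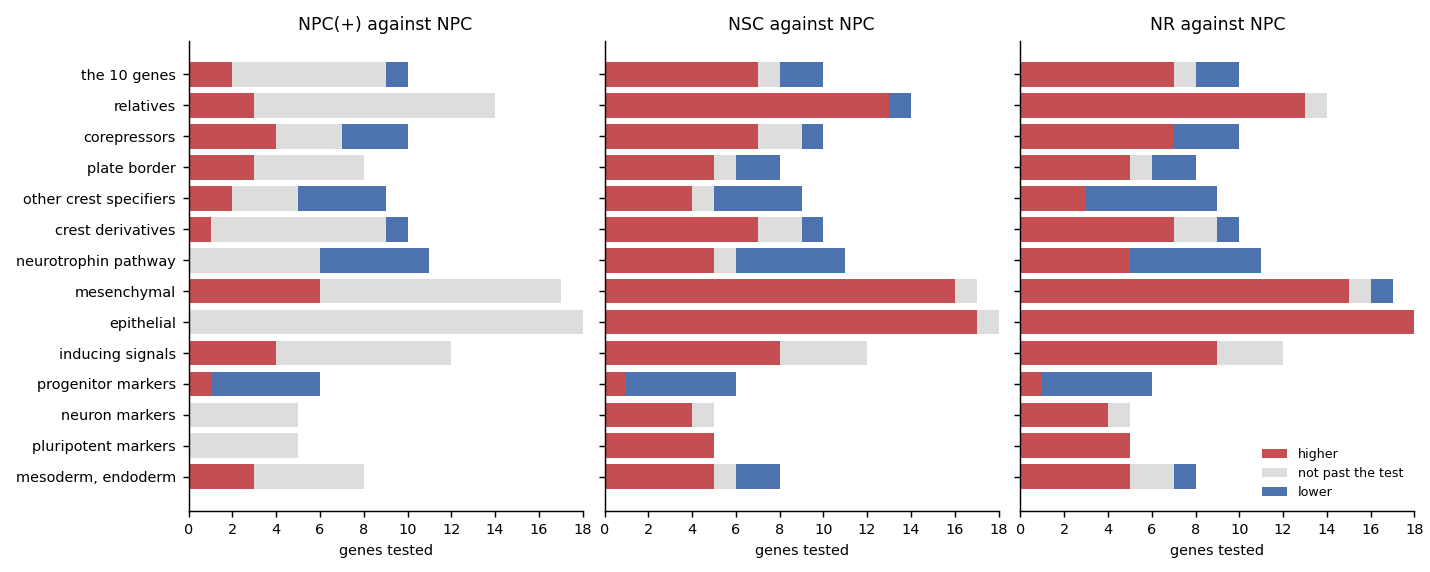
Number of genes tested in each list (x axis, genes) that were called higher (red), lower (blue) or not called (grey) in NPC(+), NSC and NR against NPC, with the lists on the y axis. Epithelial genes are grey throughout in NPC(+) and red in 17 of 18 in NSC and 18 of 18 in NR.

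Genes of the plate border and the crest programme were mixed. Of 8 tested plate border genes 3 were higher and none lower in NPC(+), where 21.6% of all genes were higher. Msx2, a BMP-responsive homeobox gene, had 1, 0 and 0 counts in NPC and 4, 18 and 3 in NPC(+), a pooled ratio of 45.4 (7.43 to 1863, adjusted p = 3.00e-04), and 18 of the 25 counts were in replicate 2. Msx1 was higher by 0.82 (SE 0.33, adjusted p = 0.0714). At an unadjusted p under 0.05 edgeR again had no plate border gene lower, and DESeq2 called 2 higher and none lower. In NSC and NR Msx2 and Pax3, a paired box factor of the dorsal neural tube, were higher than in NPC, Pax3 at 48.5, 23.9 and 48.5 CPM in NSC and 5.23, 11.8 and 15.5 CPM in NR. Msx1 and Zic1 were lower than in NPC in both. Over the list 5 of 8 genes were higher and 2 lower in NSC as in NR.

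Of 9 tested crest specifiers outside the set, 2 were higher and 4 lower in NPC(+). Id3, an inhibitor of helix-loop-helix factors that crest precursors use, was at 46.0, 40.2 and 43.8 CPM in NPC and at 258, 247 and 263 CPM in NPC(+), a log2 difference of 2.56 (SE 0.15, adjusted p = 2.73e-08), and Id2 was higher by 0.65 (SE 0.17, adjusted p = 0.00663). Sox9, a SoxE factor of crest and of glia, fell from 201, 241 and 262 CPM to 93.8, 92.2 and 94.6 CPM, a log2 difference of -1.32 (SE 0.28, adjusted p = 0.00189). Sox8, its relative, was lower, at -1.29 (SE 0.15, adjusted p = 1.38e-05). Sox10, the SoxE factor of migrating crest, was at 0 in all 6 NPC and NPC(+) libraries and at 0.311 to 0.618 CPM in NSC and NR. The count of 0 was in libraries with the floors given above. In NSC 4 specifiers were higher and 4 lower than in NPC, and in NR 3 and 6, with Mycn among the highest rises (5.25 in NSC, SE 0.18, adjusted p = 2.36e-11) and Sox8 the deepest fall (-4.45, SE 0.17, adjusted p = 5.09e-11).

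Genes of crest derivatives (autonomic neurons, glia and pigment cells) summed to 11.6 to 15.0 CPM in NPC and 10.7 to 13.8 CPM in NPC(+), where 1 of 10 tested was higher and 1 lower. They summed to 503 to 660 CPM in NSC and 158 to 325 CPM in NR, with 7 higher and 1 lower in each. Erbb3, a neuregulin receptor of crest glia and of some epithelia, was higher in NR than in NSC by 3.18 (SE 0.26, adjusted p = 1.65e-06). The pigment factor Mitf was lower than in NPC in NPC(+) (-1.15, SE 0.31, adjusted p = 0.00888), NSC and NR. Neuron markers moved with the derivatives in part, with 4 of 5 higher in NSC and in NR (summed level 382 to 449 and 254 to 350 CPM against 11.4 to 16.5 in NPC), and their part in these values was not tested.

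Of 11 partners of Ngfr in neurotrophin signalling, 5 were lower in NPC(+), 6 did not pass and none was higher, where 22.7% of all genes were lower. The largest falls were those of the ligand gene Bdnf (-1.66, SE 0.19, adjusted p = 1.64e-05) and of Lingo1 (-1.15, SE 0.17, adjusted p = 1.09e-04), which encodes a coreceptor of p75NTR. In edgeR no gene of the list was higher at an unadjusted p under 0.05 either, while DESeq2 called 1 higher and 5 lower. In NSC and NR, where Ngfr itself was high, 5 of 11 were higher in each and 5 and 6 lower. The receptor gene Ntrk2 was lower in NSC, with a log2 difference of -2.85 (SE 0.21, adjusted p = 3.49e-08) and in NR, with -3.44 (SE 0.22, adjusted p = 7.53e-09). The ligand gene Ntf5 had no count in NPC. Against 3 counts in each NPC library, Ntf5 was at least 1.62-fold higher in NSC and 5.16-fold in NR.

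Signals that induce the transition were higher in part in NPC(+), where 21.6% of all genes were higher. Of 12 such signals 4 were higher and none lower (5 and 0 at an unadjusted p under 0.05, 4 and 1 by DESeq2). They included the ligand gene Bmp2, at 0.298, 0.698 and 0.417 CPM in NPC and 1.74, 3.30 and 2.67 CPM in NPC(+) (log2 difference 2.63, SE 0.43, adjusted p = 3.00e-04), and the receptor gene Tgfbr2 (1.02, SE 0.27, adjusted p = 0.00845). The BMP target Id1 was higher by 0.91 (SE 0.21, adjusted p = 0.00314). In NSC 8 and in NR 9 of the 12 were higher and none lower than in NPC. Corepressors that Snail and Zeb proteins recruit were 4 higher and 3 lower of 10 in NPC(+), all by less than 1 on the log2 scale, with the demethylase gene Kdm1a at 0.48 (SE 0.08, adjusted p = 3.58e-04) and the deacetylase gene Hdac2 at -0.43 (SE 0.08, adjusted p = 5.04e-04). In NSC 7 were higher and 1 lower than in NPC and in NR 7 and 3, led by Ajuba, a LIM protein that binds the SNAG domain of Snail proteins, at 3.16 (SE 0.34, adjusted p = 1.34e-06) and 3.33 (SE 0.34, adjusted p = 7.55e-07).

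Close relatives of the 10 genes were mostly off in NPC. Of 16 relatives, 6 had no count in any NPC library, and 14 were tested. Prrx2, the paralog of Prrx1, was at 4.12, 6.42 and 3.76 CPM in NPC and at 17.1, 15.5 and 15.8 CPM in NPC(+), a log2 difference of 1.76 (SE 0.18, adjusted p = 4.82e-06), while Prrx1 did not pass. Hand2, a helix-loop-helix factor of crest, had no count in NPC and 0, 6 and 9 counts in NPC(+), at least 3.03-fold higher against 3 counts per NPC library but absent from 1 NPC(+) library. Of the tested relatives 3 were higher and none lower in NPC(+), at an unadjusted p under 0.05 and by DESeq2 as well, with a median of 0.47 over the 7 above the floor, counting the 2 with NPC at 0 at their bound. In NSC 13 of 14 were higher and 1 lower than in NPC and in NR 13 and none. Of the 16 relatives, 11 had 3 counts or fewer in every NPC library. Those of them that were tested passed the low-count filter only through other groups, and a fall from NPC could not have been seen for them. Tfap2c, the AP-2 factor of trophoblast, germ cells and naive pluripotent cells, was at 98.0, 60.6 and 70.2 CPM in NR and 4.92, 3.76 and 4.72 CPM in NSC, a log2 difference of 4.08 (SE 0.20, adjusted p = 3.82e-08), whereas Tfap2a did not pass between these groups.

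Mesoderm and endoderm markers, which share several of these factors, were 3 higher and none lower of 8 tested in NPC(+) (4 and none by unadjusted p and by DESeq2). Foxf1 was the clearest of them, at a log2 difference of 0.92 (SE 0.23, adjusted p = 0.00551). The markers of this list summed to 45.5 to 57.2 CPM in NPC, 79.3 to 90.3 in NPC(+), 59.1 to 78.8 in NSC and 89.5 to 148 in NR. These sums hold opposite changes, with 5 of 8 tested higher and 2 lower in NSC than in NPC, and 5 and 1 in NR. Mean T was 0.156 CPM in NPC and 43.0 in NR (SD 32.0), and Sox17 0.0465 and 13.0. Foxf1 instead fell from 19.6 CPM in NPC to 0.837 in NSC and 1.43 in NR. In NPC 1 and in NPC(+) 2 of the 10 listed markers were at 0 in all libraries. Their part in the values of the 10 genes was not tested. None of the 5 neuron markers was called in NPC(+) by edgeR or DESeq2 or had an unadjusted p under 0.05, and of the 5 pluripotency markers none was called by edgeR or had an unadjusted p under 0.05, while DESeq2 called 1 higher.

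Within NSC and NR the genes also differed between replicates, and in both groups replicate 2 stood apart. Prrx1 in replicate 2 was 0.296 times the mean of replicates 1 and 3 in NSC and 0.432 times in NR, Foxd3 0.288 and 0.457 times, Snai2 0.472 and 0.421 times and Tfap2a 0.497 and 0.612 times. Ngfr was instead 1.52 and 1.25 times that mean, and Twist1 1.43 and 1.55 times. Over the 10 genes replicate 2 was the lowest library in both groups for 4 and the highest in both for 2, and over all 17003 genes the shares were 19.3% and 17.1%. All 5 pluripotency markers were lowest in replicate 2 of both groups. Among the 17 mesenchymal genes 8 were lowest and 6 highest there, with Col1a2, a fibrillar collagen chain, at 0.214 and 0.111 times and the smooth muscle actin gene Acta2 at 6.21 and 2.90 times. The genes named in this paragraph and in its plot were chosen after their values were seen, and the part of these marker genes in the values of the set was not tested.

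**Figure D3:**
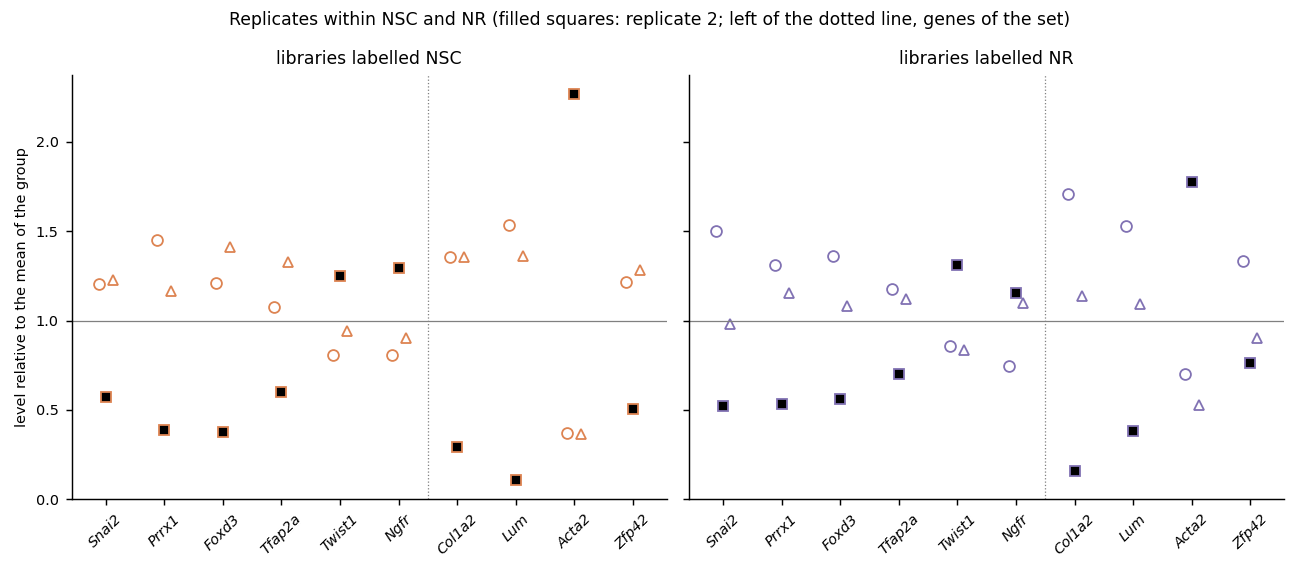
Level of 6 genes of the set and of 4 marker genes in each library of NSC (left) and NR (right), divided by the mean of the 3 libraries of that group (y axis, ratio). Filled squares are replicate 2, open circles and triangles replicates 1 and 3. Snai2, Prrx1, Foxd3 and Tfap2a lie below 1 and Twist1, Ngfr and Acta2 above 1 in replicate 2 of both groups, and Col1a2, Lum and Zfp42 lie below 1.

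The genes nearest in pattern to each member were found over the 12 libraries as those with the smallest root mean square difference of mean-centred log2 CPM. For Snai2 they were Igsf1 (0.56), Dysf (0.56) and Crtac1 (0.66), and for Twist2 Prr22 (0.35), Kit (0.37) and Sh2d4b (0.41). Zeb1 was followed more closely, by Hoxaas3 (0.13), Gdf9 (0.16) and Slc35b2 (0.18), as were Zeb2 by Megf9 (0.11), Pkia (0.12) and Hspa4l (0.13) and Twist1 by Wdr1, Itpkc and Psmd7 (0.14 to 0.15). The plate border gene Msx1 (0.28) was the second nearest to Tfap2a after Aatk (0.27). Ngfr had the endothelin receptor gene Ednra (0.47) next after Rftn1 (0.45) and Reep2 (0.47). Snai1 was nearest to Parp12 (0.33), Prrx1 to Ms4a4d (0.30) and Foxd3 to Abcb1a (0.57).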

How the data were processed

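RNA was isolated with the PicoPure kit, amplified with SMART-Seq v4 and made into libraries with MicroPlex v2, per the labels. The authors deposited raw counts per Ensembl gene, without normalization, for 12 libraries. The processing notes of the submitters name STAR 2.6, RSEM 1.1.14 and mm10 without their roles, and the strand setting is not given in the sources used here. All 12 count columns were used. Symbols were matched for 45143 of 45706 IDs, and the 563 others held 0.124% of counts. Coordinates, exon lengths and overlaps came from GENCODE for GRCm38, the same assembly as mm10.

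Groups and replicate numbers came from the sample titles. Replicates are labelled by number, and p-values measure the spread between these libraries. Counts were scaled by TMM, filtered by filterByExpr over 4 groups and fitted with glmQLFit and glmQLFTest in edgeR 4.0.16 (limma 3.58.1, R 4.3.3) over all 12 libraries, with a prior count of 0.125. P-values were adjusted by Benjamini and Hochberg over 17003 genes. The call needed an adjusted p under 0.1 and p under 0.05. Standard errors are the log2 difference divided by the square root of F. Where a group had 3 counts or fewer in each library, the ratio of pooled counts is given with an exact 95% interval, which covers counting error only, and against a group at 0 a bound at 3 counts per library. Tables used Python 3.11.15, pandas 2.3.3 and scipy 1.17.1, and figures matplotlib 3.10.9. Promoters are those of RefSeq on GRCm38.p6.

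The 10 genes and 13 further lists of 143 genes were chosen with earlier results of these data known. Besides the 10 genes in every comparison, the text names from each list at most the 3 largest rises and 2 largest falls called in NPC(+) against NPC, 2 of each in NSC and NR against NPC and 1 of each in NR against NSC. Beyond that rule Cdh1, Sox10, Sox1 and the genes of the replicate comparison are named, chosen after their values were seen. Some genes that the rule would name are not reported here. Tested on simulated data for NPC(+) against NPC over 17003 genes, the fit called 91% of 100 genes changed by 3 on the log2 scale. It called 78% of 100 genes changed by 1.5 and 0.100% of unchanged genes. Each simulated gene had its mean level over the 12 libraries, and all had the same spread between replicates. The rates therefore do not describe genes at the floor in NPC or genes with a spread of their own. Of the alternatives, 22 were planned and 2 were added after seeing the data. They were DESeq2 1.42.0, other scalings, filters, thresholds and prior counts, the replicate block, fits of the groups compared only, omission of each library, omission of replicate 2 of NSC and NR, and thinning to 3407066 counts. Same-numbered libraries of NR and NSC had correlated deviations from their group means (0.229, 0.490 and 0.296). NR replicate 1 with NSC replicate 3 (0.186) and NR replicate 3 with NSC replicate 1 (0.301) did so too. Replicate 2 was thus set apart in both groups, while the numbers did not tell replicates 1 and 3 apart. The numbers were used as the block there, although no label says what a number shares. In the other comparisons the correlations of same-numbered libraries were between -0.0472 and 0.0619.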

Additional observations from a re-analysis of the deposited data

How the results depend on the processing

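The log2 differences of the 10 genes over the 6 comparisons kept their direction and their side of the threshold in 1321 of 1383 refits, with 27 that no longer passed, 31 that newly passed and 4 that changed sign, none of which had passed. The changes of sign were Twist1 in NPC(+) against NPC after thinning (0.14), Twist1 in NR against NSC without NR replicate 2 (range over libraries left out -0.018 to 0.41), Ngfr in NR against NSC without NSC replicate 2 (-0.35 to 0.020) and Zeb2 in NPC(+) against NR without NR replicate 1 (-0.15 to 0.40). The cause was not tested. Requiring a fold change over 4 as well left 0 genes lower in NPC(+) against NPC, 1 lower in NSC against NPC, 1 higher and 0 lower in NR against NSC, and 4 lower in NPC(+) against NR, by construction of that limit. With 1 library left out, the number lower in NPC(+) against NPC ranged from 0 to 1, and Zeb1 was the gene lost, without NPC replicate 1, NPC(+) replicate 1 or NPC(+) replicate 2. With the replicate block 5 genes were higher in NR against NSC, and the block changed no other call there. The numbers set replicate 2 apart in NR and NSC but did not pair replicates 1 and 3. In the other comparisons, where same-numbered libraries did not deviate together, the block gave 2 higher and 1 lower in NPC(+) against NPC. It gave 8 higher in NSC against NPC, with Twist1 added, and the numbers of the main fit elsewhere. Fitted differences from NPC moved by over 1.5 times for several genes with 1 to 4 counts there, Snai2 in NPC(+) from 4.78 to 7.33 (5.05 to 6.72 with 1 NPC library left out), Twist2 from 2.75 to 7.06 and Foxd3 in NSC from 3.18 to 8.04, the extremes of Twist2 and Foxd3 being reached at a prior count of 2 or when a single NPC library was left out, so ratios with counting intervals are given instead. Depth limits what can be said of Snai1 and Foxd3 in NPC(+), where 3 counts correspond to 0.622 CPM.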
